A study of Homo sapiens with 2 samples.

Results

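BLOC-1, the biogenesis of lysosome-related organelles complex 1, was described at the mRNA level in C4-2 prostate cancer cells through its 8 subunit genes: BLOC1S1, BLOC1S2, BLOC1S3, BLOC1S4, BLOC1S5, BLOC1S6, DTNBP1 and SNAPIN. The probe sets were chosen by the array's annotation, as all those it assigns to a single subunit gene, and the subunits themselves were chosen from earlier results of these arrays, in which BLOC1S6 stood out. Of 54675 probe sets on the array, 12 were annotated to 1 subunit alone and covered 7 of the 8 genes. A further 2 were annotated to BLOC1S5 together with the read-through gene EEF1E1-BLOC1S5, and they were the only ones for BLOC1S5. The subunit values below are therefore a description of these 14 probe sets. Values of other genes are set beside them as description too, and no test was made.

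The cells were transfected with miR-99a or, as the control, with si-GL2, a small interfering RNA that bears the name of a luciferase reporter. Both cultures were C4-2 cells grown in RPMI medium with fetal bovine serum, transfected with the lipid reagent RNAiMax and harvested after 48 h. Each condition was measured on 1 Affymetrix array, so each value is a single measurement without a replicate error. C4-2 descends from the LNCaP line and expresses the androgen receptor, and the amount of RNA transfected is not given in the sources used here. In such bulk RNA, fewer cells that express a gene and less of its mRNA per cell cannot be told apart.

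BLOC-1 is a stable complex of 8 small, largely coiled-coil proteins on early endosomes, where it helps to sort membrane proteins into tubules that leave for recycling endosomes and for lysosome-related organelles such as melanosomes and platelet dense granules. Inherited loss of several subunits, among them BLOC1S6 (pallidin), BLOC1S3 and DTNBP1 (dysbindin), causes forms of Hermansky-Pudlak syndrome, with reduced pigment and a bleeding tendency. BLOC1S1, BLOC1S2 and SNAPIN are also subunits of BORC, a related complex that couples lysosomes to kinesin through the small GTPase ARL8.

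The transfected agent belongs to the miR-99 family, whose members are known for repressing transcripts that pair with the seed at their 5′ end. The mature sequences of the family's 5p arms are shown as background, and no value below depends on them. They run 5′ to 3′ with the seed (bases 2 to 8) in capitals, from RefSeq on GRCh38.p14. The labels give neither the arm nor the sequence of the RNA that was transfected.
hsa-miR-99a-5p (chr21:16539101-16539122, plus strand): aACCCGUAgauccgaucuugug
hsa-miR-100-5p (chr11:122152275-122152296, minus strand): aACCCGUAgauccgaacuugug
hsa-miR-99b-5p (chr19:51692618-51692639, plus strand): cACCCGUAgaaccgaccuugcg
The 3 arms share 1 seed and have 22 bases each. Counted from the 5′ end of miR-99a-5p, miR-100-5p differs by U16A, and miR-99b-5p by A1C, U11A, U16C and U21C. Whether the subunit transcripts hold matches to this seed was not tested.

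BLOC1S6 was lower after miR-99a by about 2-fold on all 3 of its probe sets, while no other subunit differed by 1.5-fold. The brightest BLOC1S6 probe set, 224892_at, read 1613 after miR-99a against 3287 after si-GL2, in units of deposited signal intensity. The second, 222826_at, read 525 after miR-99a and 1235 after si-GL2. The dimmest, 224883_at, read 303 after miR-99a and 668 after si-GL2. On each of the 3 the si-GL2 array was the higher by between 2.04 and 2.35 times.

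Differences were taken as log2(signal + 16), miR-99a minus si-GL2, a scale that understates the change of dim probe sets. On it the 3 BLOC1S6 probe sets were at -1.02, -1.21 and -1.10 in the order above, a mean of -1.11 with an SD of 0.09 over probe sets. This SD compares probe sets on the same 2 arrays and says nothing of the spread between cultures. The gene's 3 probe sets spanned 0.19, against a median span of 0.31 over the 2611 genes that had at least 3 expressed probe sets. The 18 probe sets of the hybridisation spikes, which are added to every sample, were between -0.12 and 0.06.

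**Figure D1:**
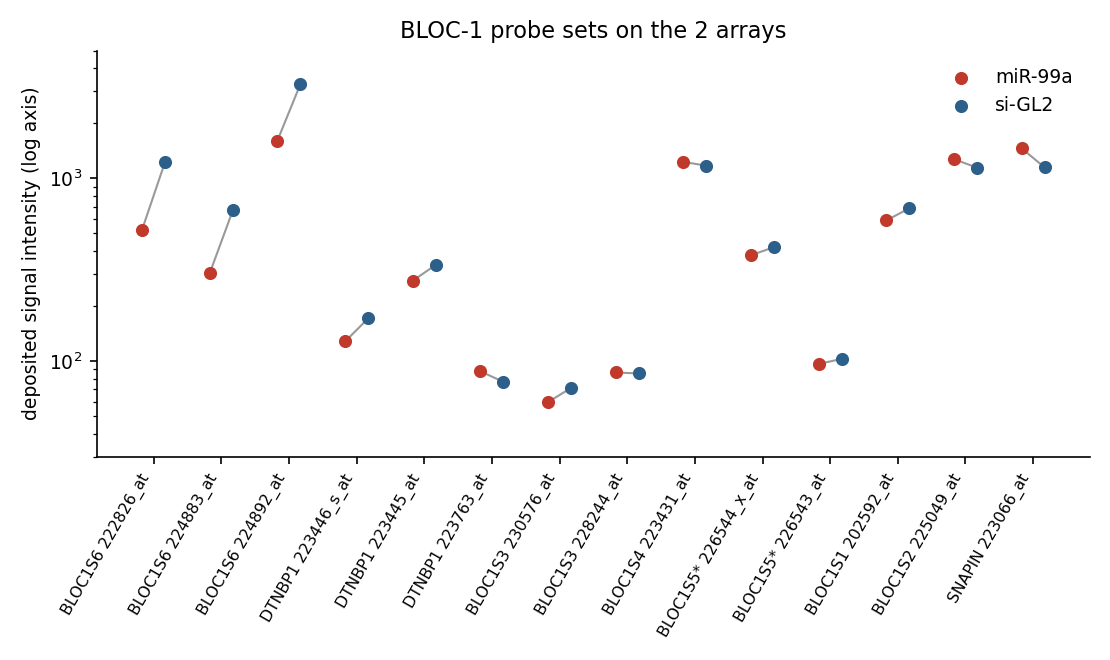
Deposited signal intensity (log axis) of the 14 BLOC-1 probe sets on the miR-99a array (red, left of each pair) and the si-GL2 array (blue, right); each point is 1 array, and an asterisk marks the probe sets that BLOC1S5 shares with a read-through gene. The 3 BLOC1S6 pairs are steep, such as 525 against 1235, while the steepest pair of the other subunits is 128 against 171 (DTNBP1).

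A gene was represented by its brightest probe set and counted as expressed when the mean of that probe set over both arrays reached the median of all probe sets, a signal of 47.2, which is a relative limit and not a detection call. All 7 subunits with a probe set of their own were expressed, as were all 12 probe sets. At a size rule of 1.5-fold, 1 of the 7 was lower and 0 were higher, against 2.90% and 1.21% of the 12218 expressed genes. The 1 lower gene, BLOC1S6, was also past 2-fold, as were 0.336% of expressed genes, and was the 38th lowest of them. Because BLOC1S6 was chosen for this difference on these same arrays, its place in this or any other order of genes described here was fixed by that choice, and nothing is read from it. The median over the 7 subunits was 0.01, beside -0.03 over all expressed genes, and became 0.04 without BLOC1S6. It lay between -0.10 and 0.04 under every alternative tried, so its sign depends on the setting.

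Bright probe sets vary less between these arrays than dim ones. When expressed genes were ranked by level and divided into 10 equal bins, the bin of BLOC1S6 held 1222 genes. There the SD of the difference was 0.15, against 0.26 over all expressed genes. In that bin 7 genes were at least 1.5-fold lower, and BLOC1S6 was the lowest and the 1 gene past 2-fold. Over single probe sets, 2.57% of the 27338 above the limit were at least 1.5-fold lower, the 3 of BLOC1S6 among them. These counts describe where the chosen gene lies and support nothing further.

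**Figure D2:**
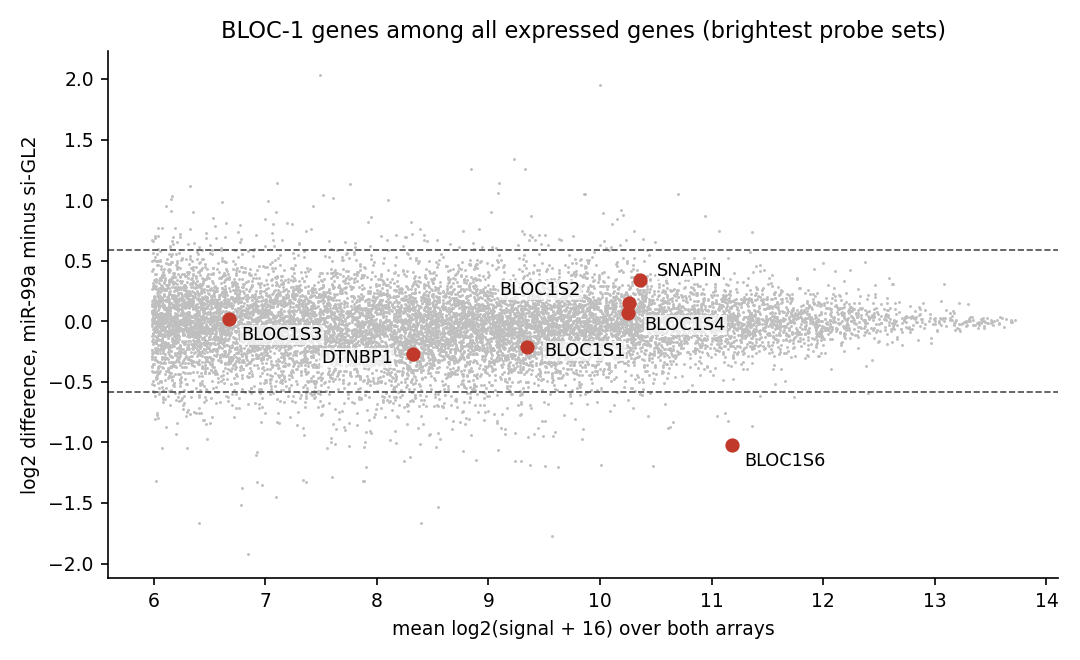
Difference, miR-99a minus si-GL2 (vertical, log2), against the mean log2(signal + 16) over both arrays (horizontal) for the brightest probe set of each of the 12218 expressed genes (grey) and the 7 BLOC-1 genes (red). Dashed lines mark 1.5-fold; BLOC1S6, at -1.02, lies below the band of genes of like brightness, and the other 6 subunits lie between the dashed lines.

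The values of the gene's probe sets can also be set out beside those of other genes with several probe sets, again as a description of a gene chosen for being lower. Of the 2611 genes with at least 3 expressed probe sets, 10 had all of them at least 1.5-fold lower, or 0.383%, and BLOC1S6 and CPEB3 had all of them at least 2-fold lower, or 0.0766%. CPEB3, an RNA-binding protein gene of the CPEB family, was at a mean of -1.20. The other 8 had means from -0.93 (IGF1, a growth factor gene) to -0.71 (LIN7C), with SLC39A6, a zinc importer gene, at -0.87 and SMARCA5, the ISWI ATPase gene, at -0.85.

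**Figure D3:**
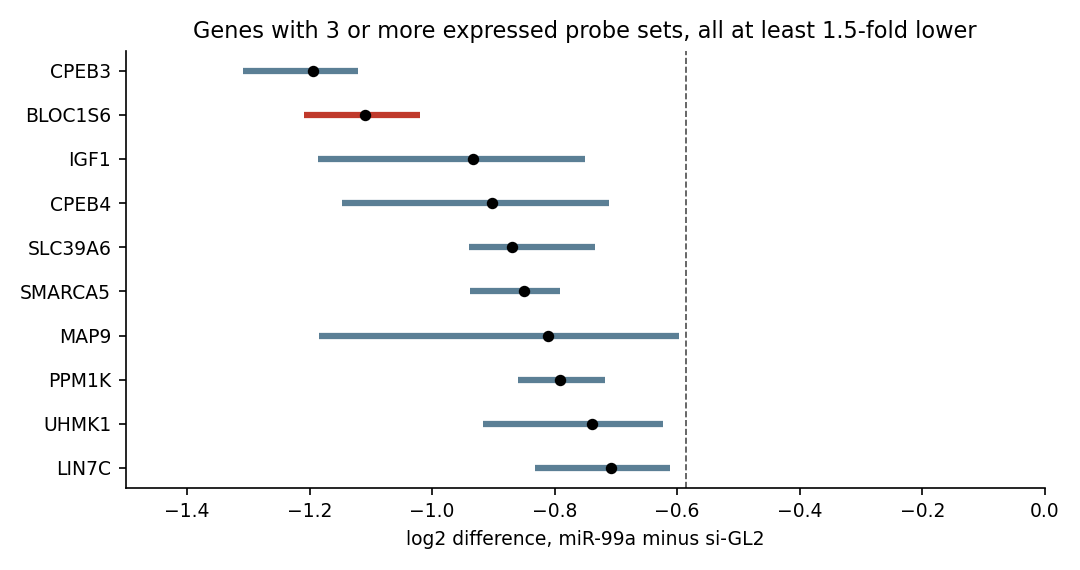
The 10 genes with 3 or more expressed probe sets that were all at least 1.5-fold lower after miR-99a; each bar runs from the lowest to the highest probe set, the black point is their mean, and the dashed line marks 1.5-fold. BLOC1S6 (red) has the second lowest mean, -1.11, after CPEB3 at -1.20, with a short bar.

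The subunits found in BLOC-1 but not in BORC, other than BLOC1S6, differed by less than 1.5-fold on every probe set. DTNBP1, whose protein dysbindin also binds dystrobrevins, read 275 after miR-99a and 336 after si-GL2 on its brightest probe set, a difference of -0.27. Its second probe set, 128 after miR-99a against 171 after si-GL2, was at -0.38, the largest difference in size of any subunit probe set outside BLOC1S6. The dimmest pointed the other way, at 87.9 after miR-99a and 76.9 after si-GL2 (0.16). The DTNBP1 probe sets therefore spanned 0.54 and did not share a direction, unlike those of BLOC1S6.

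BLOC1S3, a subunit whose loss in the mouse gives the reduced pigmentation phenotype, was dim. It read 86.6 after miR-99a and 85.5 after si-GL2 on one probe set (0.01) and 59.6 after miR-99a and 71.3 after si-GL2 on the other (-0.21). BLOC1S4, named cappuccino in the mouse, read 1231 after miR-99a and 1174 after si-GL2 (0.07) on its only probe set.

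BLOC1S5, named muted in the mouse, can be described only through the probe sets that it shares with EEF1E1-BLOC1S5. One read 379.6 after miR-99a and 421 after si-GL2 (-0.14), and the other 96.5 after miR-99a and 103 after si-GL2 (-0.08). Both were slightly lower after miR-99a and well within 1.5-fold, and neither can be assigned to BLOC1S5 alone. With the brighter of them counted as BLOC1S5, a choice made after the values were seen, the median over 8 subunits was -0.06.

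The 3 subunits shared with BORC did not differ in the same direction. SNAPIN, first known as a binding partner of the SNARE protein SNAP25, was the highest subunit, with 1461 after miR-99a against 1149 after si-GL2 (0.34). BLOC1S2 read 1273 after miR-99a and 1147 after si-GL2 (0.15). BLOC1S1, also called GCN5L1 and linked to mitochondrial protein acetylation, read 588 after miR-99a and 686 after si-GL2 (-0.22). Each of these genes has 1 probe set, so none has a second reading on the arrays. The 3 had a median of 0.15, and DTNBP1, BLOC1S3 and BLOC1S4, which are in BLOC-1 alone, had a median of 0.01.

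Apart from BLOC1S6, the subunits' 9 probe sets lay between -0.38 and 0.34, 4 of them below 0. The gap between the highest BLOC1S6 probe set and the lowest of these 9 was 0.64. By brightest probe set, 2 of the 6 other subunits were below 0 and 4 above, where 56.3% of expressed genes were below 0. The central 95% of expressed genes spanned -0.61 to 0.46, a range that holds all 6 and not BLOC1S6.

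The read-through annotation touches other subunits too. A probe set annotated to BLOC1S1-RDH5 and RDH5 read 21.3 after miR-99a and 45.1 after si-GL2, below the expression limit on both arrays, and one annotated to BLOC1S5-TXNDC5 and TXNDC5 read 2360 after miR-99a and 2148 after si-GL2 (0.13). These name no subunit itself and were left out of the counts. RefSeq also lists a BLOC1S6 pseudogene, BLOC1S6P1, on chromosome X, and whether the BLOC1S6 probes detect it was not tested.

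BLOC1S6 lies on chromosome 15 between the zinc transporter gene SLC30A4 and SQOR, a mitochondrial sulfide oxidoreductase gene, in the order of protein-coding genes in RefSeq. These neighbours were looked up after the BLOC1S6 values were known. SLC30A4 was lower after miR-99a on all 3 of its probe sets, with 2700 after miR-99a against 3817 after si-GL2 on the brightest (-0.50). The others read 248 after miR-99a against 464 after si-GL2 (-0.86) and 82.0 after miR-99a against 191 after si-GL2 (-1.08). SLC30A4 did not reach 1.5-fold on its brightest probe set and passed it on the dimmer ones.

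SQOR read 574 after miR-99a and 803 after si-GL2 on its 1 probe set (-0.47), short of 1.5-fold. The next gene beyond it, SEMA6D, a semaphorin gene, was higher, at 155 after miR-99a against 87.7 after si-GL2 (0.72) on its 1 expressed probe set. On the other side AFG2B had 3 probe sets between 0.02 and 0.20. The lower values thus covered BLOC1S6 and its nearest measured neighbour on either side, and the next expressed genes, AFG2B and SEMA6D, did not share the direction. Whether the neighbours' differences are related was not tested.

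Of 60 genes in 7 lists of complexes and proteins that work with BLOC-1, 54 were expressed, and 0 were at least 1.5-fold lower or higher by their brightest probe sets, against the 2.90% and 1.21% of all expressed genes given above. Their median was -0.08, with a range of -0.47 to 0.36. Of the 54, 34 were below 0, beside 56.3% of all expressed genes, and nothing is read from this count. By this measure BLOC1S6, chosen for being lower, was the 1 gene past 1.5-fold among the 61 expressed genes of the complex and its partners. With so few partner genes, a count of 0 lies close to those shares, and nothing is read from it. On averaging over all probe sets, RAB27A joined BLOC1S6, as described below. Dimmer probe sets of AP3D1 (0.65), RAB4A (-0.63) and VPS41 (-0.63) were also past 1.5-fold.

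BLOC-2 and BLOC-3, the other complexes named for lysosome-related organelles, were nearly level by brightest probe set. Their 5 genes, HPS1, HPS3, HPS4, HPS5 and HPS6, were all slightly below 0, with a median of -0.10. Among all expressed genes 56.3% were below 0, and nothing is read from the direction of 5 genes. HPS6 was lowest, at 416 after miR-99a and 456 after si-GL2 (-0.13), and HPS5 highest, at 327 after miR-99a and 344 after si-GL2 (-0.07). HPS3 was at -0.10 on its brightest probe set and reached 0.41 on another. The expressed probe sets of HPS1 ran from -0.37 to 0.02.

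The AP-3 adaptor, which binds BLOC-1 and sorts cargo on the same endosomes, had 5 expressed genes with a median of 0.04. AP3B1, its large beta subunit, was highest by brightest probe set, at 329 after miR-99a and 278 after si-GL2 (0.23). AP3D1 was at 0.07 on its brightest probe set and reached 0.65, past 1.5-fold, on a dimmer one. AP3M2 was lowest by brightest probe set, at -0.26, although its other probe set was at 0.10. A dimmer probe set of another gene in the list reached -0.29. AP3S2 was not analysed here.

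BORC and ARL8 genes outside BLOC-1 had a median of -0.20 over 6 expressed members. BORCS8 was lowest at -0.42, with 303 after miR-99a against 410 after si-GL2, but its second probe set, of like brightness, was at 0.24. BORCS6 was highest, at 0.08, and its second expressed probe set was at -0.40. Together with BLOC1S1, BLOC1S2 and SNAPIN, no gene measured of that complex was past 1.5-fold.

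SNARE proteins carry out the membrane fusion that follows sorting. The list held 10 SNARE genes with NSF and NAPA, whose products take SNARE complexes apart after fusion. These 12 genes had a median of -0.00 and were split evenly, 6 below 0 and 6 above. STX12, which encodes syntaxin 13, the known binding partner of pallidin, read 1358 after miR-99a and 1353 after si-GL2 (0.01), and -0.22 by a dimmer probe set. SNAP23, a plasma membrane and endosome SNARE, was the highest of the list, at 1406 after miR-99a and 1089 after si-GL2 (0.36), and its 4 probe sets were all above 0, between 0.21 and 0.41. STX8 was lowest, at 664 after miR-99a and 759 after si-GL2 (-0.19).

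The RAB GTPases of endosomes and lysosome-related organelles had 9 expressed members and a median of -0.11. RAB32, which acts with BLOC-2 and AP-3 in melanosome cargo transport, was lowest by its brightest probe set, 291 after miR-99a against 376 after si-GL2 (-0.35), and at 0.30 by a dimmer one. RAB11A, a recycling endosome GTPase, was highest by its brightest probe set, at 5121 after miR-99a and 4345 after si-GL2 (0.24), and at -0.10 by its dimmest. RAB4A was at -0.11 on its brightest probe set and reached -0.63, past 1.5-fold, on a dimmer one.

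RAB27A, which tethers melanosomes and secretory lysosomes near the plasma membrane, was singled out after its values were seen, because its 5 probe sets were all lower. Its brightest read 813 after miR-99a and 1021 after si-GL2 (-0.32), and the next 649 after miR-99a and 823 after si-GL2 (-0.34). Of the 3 dimmer ones, 1 was at -0.71, 1 at -0.94, and the lowest read 255 after miR-99a against 527 after si-GL2, about 2-fold lower. Averaged over its probe sets RAB27A was at -0.66, past 1.5-fold. All 5 are of the _s_ or _x_ kinds, which can detect more than 1 transcript.

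The HOPS and CORVET tethering genes, which act in fusion with lysosomes and early endosomes, had a median of -0.14 over 8 members. VPS41 was lowest, at 411 after miR-99a and 481 after si-GL2 (-0.22), with 2 dim probe sets at -0.63 and -0.27. VPS18 was highest by brightest probe set, at 0.15, and its second probe set was at -0.09. A dimmer expressed probe set of another gene in this list reached 0.40. Cargoes and partners of BLOC-1 had a median of -0.03 over 9 expressed members. The copper transporter ATP7A, a cargo that BLOC-1 is known to deliver to melanosomes, was the lowest gene of all 7 lists, at 148 after miR-99a and 212 after si-GL2 (-0.47), with its second probe set at -0.24. The tetraspanin CD63 was highest, at 4676 after miR-99a and 4003 after si-GL2 (0.22). DTNB, the dystrobrevin partner of dysbindin, read 220.0 after miR-99a and 294 after si-GL2 (-0.39).

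**Figure D4:**
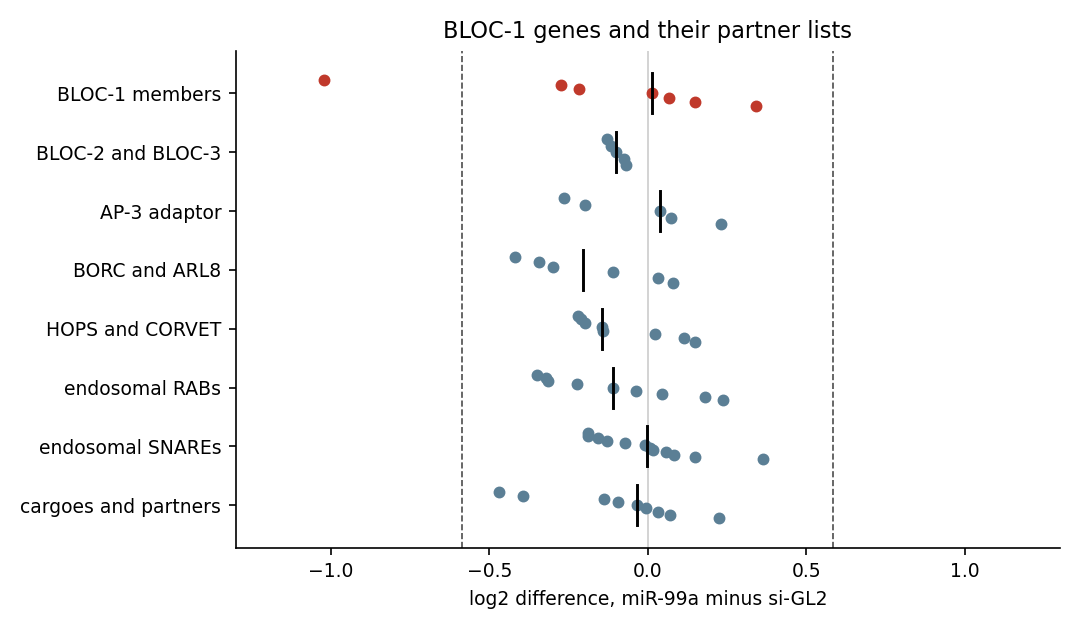
Difference, miR-99a minus si-GL2 (log2, horizontal), of the brightest probe set of each expressed gene in BLOC-1 (red) and 7 partner lists (blue-grey); each point is a gene, black ticks are list medians and dashed lines mark 1.5-fold. BLOC1S6 at -1.02 is the 1 point outside the lines, and the partner genes range from -0.47 to 0.36.

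The 5 expressed genes whose signals on both arrays were numerically closest to those of BLOC1S6 were PLPP5, RHOU, IMPDH1, SLC39A6 and TMEM135, by Euclidean distance on the log2 scale over 2 arrays. Signals of different probe sets have no common scale, so this is a likeness of numbers. PLPP5, a lipid phosphatase gene, was nearest, at a distance of 0.15, with 1694 after miR-99a against 3004 after si-GL2 (-0.82). The others were at differences between -0.87 and -0.47. Being chosen by closeness to the BLOC1S6 signals, the 5 had to be lower after miR-99a, and nothing is read from their direction.

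The arrays' medians were 47.8 after miR-99a and 47.4 after si-GL2, so values were used as deposited. Of 10 prostate luminal markers, 8 had a probe set of their own and all 8 were expressed, and their signals summed to 31172 after miR-99a and 31243 after si-GL2. By brightest probe set, their differences ran from -0.20 (KLK2) and -0.13 (KLK3) to 0.27 (FOLH1) and 0.31 (KRT8 and KRT18), with a median of 0.00. KLK2 reached -0.78 on another expressed probe set, past 1.5-fold, and the probe sets of KLK3 ran from -0.26 to 0.20. Of the pigment cell markers, the cells in which BLOC-1 is best known, 7 of 8 had a probe set and 3 passed the expression limit, and the 7 summed to 412 after miR-99a and 486 after si-GL2. The 3 that passed were all below 0 by brightest probe set, where 56.3% of all expressed genes were below 0. The transporter gene SLC45A2 read 126 after miR-99a and 196 after si-GL2 (-0.58, and -0.43 on its other probe set). MITF was at -0.34, and at 0.02 on its other expressed probe set, and PMEL was at -0.15. By brightest probe set, the melanin enzyme genes TYR (0.69) and TYRP1 (0.04) were under the limit and above 0, as was OCA2 (0.26). TYR had a mean of 0.23 over its 3 probe sets. MLANA, also under the limit, was at -0.08 by brightest probe set, with a mean of -0.38 over its 2. Whether these differences bear on BLOC1S6 was not tested. Of the leukocyte, endothelial and fibroblast markers, 2, 2 and 5 genes passed the limit, none brighter than 233.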

How the data were processed

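Total RNA was labelled with biotin and hybridised to Affymetrix arrays, per the labels' protocols. The values deposited by the authors are linear signal intensities, 1 for each probe set on each array. How probes were summarised, and how arrays were scaled, is not given in the sources used here. With 1 array per group, the number of arrays limits the precision.

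Intensities were used as deposited and transformed to log2(signal + 16). Gene names came from the platform annotation, in which 41091 probe sets carried 1 gene name and 1801 several. Entrez identifiers of 41037 were found in RefSeq (GRCh38.p14), and 0 symbols had changed. The members and lists were chosen with earlier results of these data known. Named genes are all subunits, the highest and lowest expressed member of each partner list and the 5 genes closest in signal. Others were chosen after their values were seen: HPS1, HPS3, AP3D1, STX12, DTNB, RAB4A and RAB27A. So were the neighbours of BLOC1S6, the genes lower on every probe set and the markers named. Alternatives were 2-fold, pseudocounts of 1 and 64, centring, quantile normalization, no limit or a 75th percentile limit, averaging probe sets, and leaving out _x_ and _s_ probe sets. Python 3.11.15 was used with pandas 2.3.3, numpy 2.4.6 and matplotlib 3.10.9.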

Additional observations from a re-analysis of the deposited data

How the results depend on the processing

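Under 10 alternatives, and with the shared probe sets counted as BLOC1S5, 1 subunit was always at least 1.5-fold lower, and 0 were higher. The 2-fold rule, applied with the other settings unchanged, also gave 1 lower and 0 higher. With a pseudocount of 64 BLOC1S6 fell just short of 2-fold. Counting the shared probe sets as BLOC1S5 and leaving BLOC1S6 out of the median were added after the data were seen. BLOC1S6 lay between -1.11 (mean over its probe sets) and -0.999 (pseudocount of 64), and SNAPIN between 0.33 and 0.37. DTNBP1 lay between -0.29 and -0.16 and BLOC1S3 between -0.10 and 0.02. Of 124 comparisons with an alternative, 3 moved by more than 1.5 times in a count or by more than 0.13, the median SD between expressed probe sets of a gene. All 3 concerned the partner genes at least 1.5-fold lower, 0 by brightest probe set. There was 1 when probe sets were averaged, over all or over the expressed ones (RAB27A, -0.66), and 1 without _x_ and _s_ probe sets (VPS41, -0.63, by a dimmer probe set). No paired analysis was possible because each group holds 1 array, and no array could be left out. A dim subunit such as BLOC1S3 lies near the expression limit, where differences are understated.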
